A study of Mus musculus with 12 samples.

Results

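Receptors through which dopamine, opioid peptides, endocannabinoids, adenosine and acetylcholine act on striatal neurons were followed in SRF mutant and control mice, 1 hour after an injection of cocaine or saline. The 10 genes were Drd1, Drd2 and Drd3, Adora2a, Cnr1, Oprk1, Oprm1 and Oprd1, and Chrm1 and Chrm4, and every probe set annotated to exactly 1 of them was taken. This gave 10 probe sets for 8 genes among the 22690 of the array, 3 of them for Oprm1. No probe set was annotated to Drd1 or Adora2a in the platform annotation used here, so these receptors were not analysed. The members were chosen by name and not by a cut on their values, though with earlier results of these data known.

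All of these receptors couple to heterotrimeric G proteins. Medium spiny neurons, the projection neurons that make up most of the striatum, fall into a class that carries D1 dopamine receptors and makes dynorphin and substance P, and a class that carries D2 dopamine receptors and the adenosine receptor encoded by Adora2a and makes enkephalin. D2, cannabinoid CB1, opioid and M4 muscarinic receptors act mainly through inhibitory G proteins that lower cyclic AMP, whereas D1 and the Adora2a receptor raise it and M1 receptors act through phospholipase C. Cocaine blocks the dopamine transporter and so raises extracellular dopamine.

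The 4 groups, of 3 arrays each, were mutant mice given 25 mg/kg cocaine, mutant mice given saline, control mice given 25 mg/kg cocaine and control mice given saline. All were littermate females of 10 to 15 weeks, single-caged and handled for 5 days, and the tissue was striatum with the nucleus accumbens. The series title names SRF, the serum response factor, a transcription factor that binds the CArG box, but how its gene was altered, and in which cells, is not told by the labels. Groups came from the titles. The description field gives other groups, and the treatment text names cocaine for every sample. Each array was called a biological replicate, so the p-values measure the spread between these samples.

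The values are log2 signals made by the authors with GCRMA, and all differences below are differences of log2 signal. The Srf probe set that passed the filter read 5.01 to 5.49 in the 6 mutant arrays and 6.97 to 7.21 in the 6 control arrays, a 3.54-fold lower level in mutants (log2 difference −1.83, SE 0.0662, limma adjusted p = 5.7e-09). General markers of medium spiny neurons passed the filter for 9 genes, and the list's summed linear signal ran from 10308 to 11598 in mutants and from 10254 to 11221 in controls. The 5 cortical neuron markers on the array all lay below the filter, with sums of 32.5 to 35.2 in mutants and 32.5 to 38.0 in controls. Ttr, a choroid plexus marker, read 9.61 in replicate 3 of the cocaine-treated controls and 2.83 to 5.90 in the other 11 arrays, and results are given without that array where it matters.

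Tests were limited to probe sets with log2 signals over 4 on 3 or more of the 12 arrays. Only 3 receptor probe sets met this, those of Drd2, Cnr1 and Chrm1. The Oprk1 probe set exceeded 4 on 2 arrays, both of controls. The other 6 probe sets, for Drd3, Oprm1, Oprd1 and Chrm4, lay below 4, and below 3, on all 12 arrays.

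Among the tested receptors the mutation went with a higher Cnr1 signal, and cocaine with no called change. Cnr1 was 1.55-fold higher in mutants over both treatments. Oprk1, below the filter, read lower in every mutant array than in any control array. Drd2 and Chrm1 did not pass the test between genotypes. Of the 3 tested receptor probe sets, 1 was called between genotypes over both treatments, where 9.47% of all 11102 tested probe sets were called, 4.41% as higher in mutants.

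**Figure D1:**
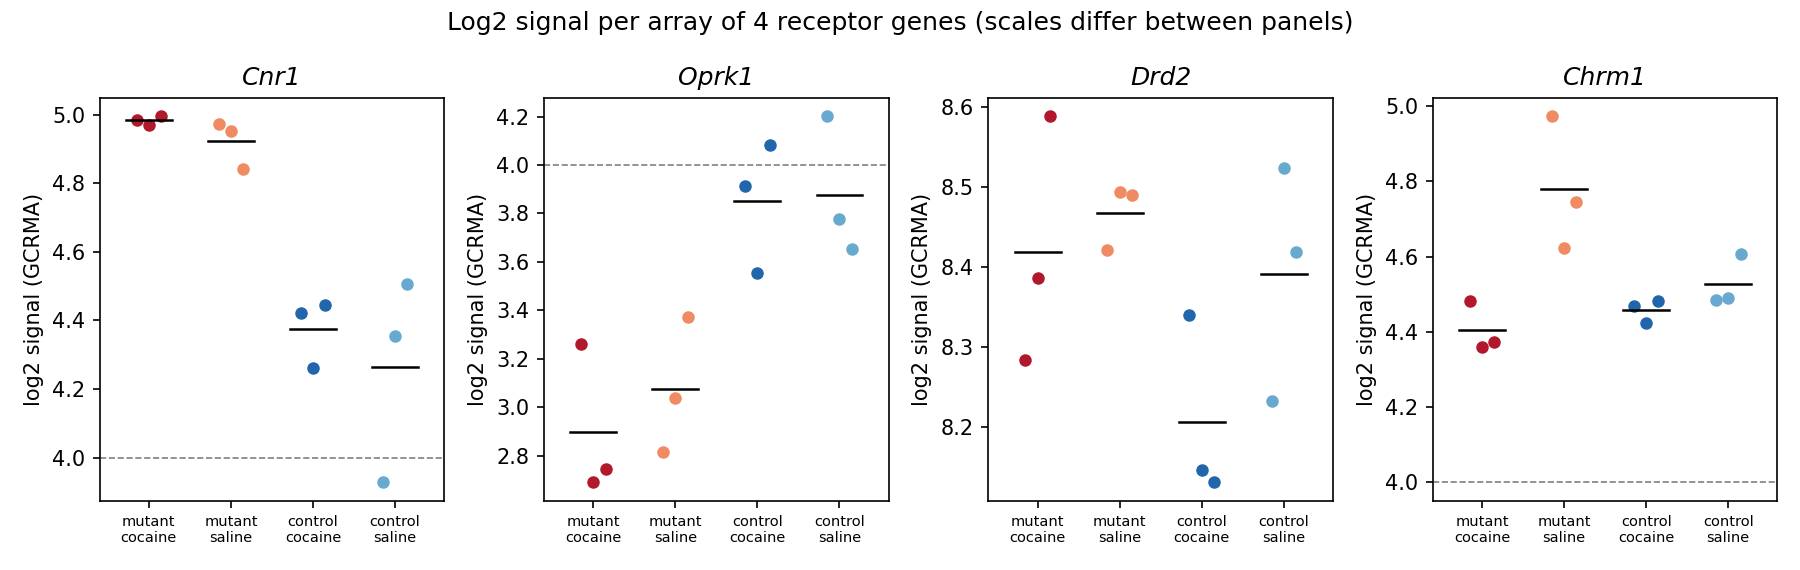
Log2 signal (y axis, a different scale in each panel) of Cnr1, Oprk1, Drd2 and Chrm1 in each of the 12 arrays by group, with 3 points and a horizontal bar for the mean of each group; the dashed line marks the floor of 4 and lies outside the Drd2 panel. Cnr1 is at or above 4.84 in all 6 mutant arrays and at or below 4.51 in all 6 control arrays. Oprk1 runs the other way, and for Drd2 the mutant arrays overlap the control arrays.

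Cnr1 encodes CB1, the presynaptic receptor for endocannabinoids. Its probe set read 4.98, 4.97 and 5.00 in cocaine-treated mutants and 4.97, 4.95 and 4.84 in saline-treated mutants. It read 4.42, 4.26 and 4.44 in cocaine-treated controls and 3.93, 4.36 and 4.51 in saline-treated controls. Every mutant array was above every control array, with a gap of 0.34 between the lowest mutant and the highest control. Such a separation, in the same direction, was seen for 2.05% of all tested probe sets. The lowest control array lay under the floor of 4.

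The Cnr1 signal averaged 4.95 ± 0.0562 in mutants and 4.32 ± 0.209 in controls (log2, SD, n = 6 each). The log2 difference was 0.63 (SE 0.0862, 95% interval 0.45 to 0.82, limma adjusted p = 0.00045), a fold of 1.36 to 1.77 over the interval. It was 0.66 after saline (SE 0.122, adjusted p = 0.00929), in a comparison that called 2.98% of the tested probe sets. After cocaine it was 0.61 (SE 0.122, adjusted p = 0.0127), where 4.19% were called. The call after cocaine was lost without the filter (adjusted p = 0.0512) and without replicate 2 of the cocaine-treated controls (0.55, adjusted p = 0.057). Without the control array of high Ttr, the difference over both treatments was 0.65 (adjusted p = 0.00142). The background correction of the authors could not be varied from these values.

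The order of the Cnr1 group means was cocaine-treated mutants, saline-treated mutants, cocaine-treated controls and saline-treated controls. The mutant groups overlapped each other, the control groups overlapped each other, and saline-treated mutants stood clear of cocaine-treated controls by 0.40. Cocaine minus saline read 0.06 in mutants (95% interval −0.20 to 0.33) and 0.11 in controls (−0.15 to 0.38), and neither passed the test.

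The start-site windows of Cnr1 are shown because it was the receptor gene called between genotypes and SRF is a DNA-binding factor. RefSeq lists 3 starts for it on the plus strand of chromosome 4 (GRCm38.p6), each here with 250 bases before the start in lower case and the 50 bases from the start on in capitals. The windows lie at chr4:33924014-33924313, chr4:33924394-33924693 and chr4:33926130-33926429, and the array does not tell which start is used.
Cnr1 start 1: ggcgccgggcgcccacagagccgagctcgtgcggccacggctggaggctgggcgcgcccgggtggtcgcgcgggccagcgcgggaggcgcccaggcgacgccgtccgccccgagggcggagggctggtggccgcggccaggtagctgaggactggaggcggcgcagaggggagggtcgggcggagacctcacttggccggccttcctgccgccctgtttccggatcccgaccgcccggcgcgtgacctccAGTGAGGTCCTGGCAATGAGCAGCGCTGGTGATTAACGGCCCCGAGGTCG
Cnr1 start 2: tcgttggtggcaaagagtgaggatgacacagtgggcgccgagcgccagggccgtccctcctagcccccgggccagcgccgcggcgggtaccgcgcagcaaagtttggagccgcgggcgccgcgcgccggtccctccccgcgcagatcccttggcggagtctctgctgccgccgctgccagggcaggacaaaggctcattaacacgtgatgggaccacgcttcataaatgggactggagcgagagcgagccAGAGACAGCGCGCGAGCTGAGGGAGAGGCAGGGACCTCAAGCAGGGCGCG
Cnr1 start 3: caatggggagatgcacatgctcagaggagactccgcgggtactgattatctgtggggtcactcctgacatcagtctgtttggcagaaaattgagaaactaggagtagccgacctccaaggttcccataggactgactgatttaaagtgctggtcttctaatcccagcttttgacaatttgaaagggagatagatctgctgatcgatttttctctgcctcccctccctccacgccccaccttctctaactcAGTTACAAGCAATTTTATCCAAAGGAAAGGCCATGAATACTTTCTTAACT
The first and second windows are rich in G and C (76.3% and 69%), the third less so (46.3%). On both strands, none of the 3 held the CArG box, the half-site TGACG of cyclic AMP response elements, the AP-1 site TGANTCA or the EGR site GCGNGGGCG. These motifs occur in 1.63%, 20.8%, 7.81% and 5.55% of the 32851 windows of this length, so most promoters lack each of them too. The motifs can overlap one another. RefSeq windows were found for 7 of the 10 receptor genes, 12 windows in all, and none of the 12 held any of the 4 motifs. Entries for Oprk1, Chrm1 and Adora2a were missing.

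Oprk1 encodes the kappa opioid receptor, whose main endogenous ligands are the dynorphin peptides made from Pdyn. Its probe set read 3.26, 2.69 and 2.74 in cocaine-treated mutants and 2.82, 3.04 and 3.37 in saline-treated mutants. It read 3.91, 3.56 and 4.08 in cocaine-treated controls and 4.20, 3.78 and 3.65 in saline-treated controls. The highest mutant array, at 3.37, was below the lowest control array, at 3.56. Without the filter, 1.63% of 22626 probe sets were separated this way.

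Oprk1 averaged 2.99 ± 0.284 in mutants and 3.86 ± 0.25 in controls (log2, SD, n = 6 each). The probe set did not enter the filtered test. In the fit without the filter its log2 difference was −0.88 (SE 0.155, 95% interval −1.23 to −0.53, limma adjusted p = 0.0158), 1.84-fold lower in mutants, in a comparison that called 3.55% of probe sets, 1.87% as lower. That call was kept in all 16 further fits without the filter, which were added after seeing the data, with adjusted p of 0.00174 to 0.0416, among them the fit without the control array of high Ttr (−0.82, adjusted p = 0.0402). Within a treatment the difference was −0.95 after cocaine (adjusted p = 0.0786) and −0.80 after saline (adjusted p = 0.178), neither called, and array weights turned the first into a call (−1.15, adjusted p = 0.000875). All mutant arrays and 4 of the 6 control arrays lay under the floor. Cocaine minus saline read −0.18 in mutants and −0.03 in controls, within the spread of the arrays.

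Drd2, the D2 dopamine receptor and the only receptor probe set of this group with a signal far above the floor, read 8.28, 8.39 and 8.59 in cocaine-treated mutants and 8.42, 8.49 and 8.49 in saline-treated mutants. It read 8.34, 8.15 and 8.13 in cocaine-treated controls and 8.23, 8.52 and 8.42 in saline-treated controls. All 4 groups overlapped their neighbours in the order of means. Mutants averaged 8.44 ± 0.105 and controls 8.30 ± 0.157 (log2, SD, n = 6 each), a difference of 0.14 (95% interval −0.01 to 0.30, limma adjusted p = 0.248), so folds of 0.993 to 1.23 lie within the interval. Cocaine minus saline was −0.05 in mutants (95% interval −0.27 to 0.17) and −0.19 in controls (−0.41 to 0.03), and neither passed the test.

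Chrm1 encodes the M1 muscarinic acetylcholine receptor. Its probe set read 4.48, 4.36 and 4.37 in cocaine-treated mutants and 4.97, 4.62 and 4.74 in saline-treated mutants. It read 4.47, 4.42 and 4.48 in cocaine-treated controls and 4.49, 4.49 and 4.61 in saline-treated controls. All 6 cocaine arrays were below all 6 saline arrays, but by a gap of only 0.00491. Over all tested probe sets, 0.234% were separated in this direction.

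Over both genotypes Chrm1 averaged 4.43 ± 0.0545 after cocaine and 4.65 ± 0.183 after saline (log2, SD, n = 6 each). The cocaine difference of −0.22 (SE 0.0642) was not called (limma adjusted p = 0.12). In mutants cocaine minus saline read −0.38 (SE 0.0909, adjusted p = 0.0584), and in controls −0.07 (SE 0.0909, adjusted p = 0.976). The difference in mutants passed the threshold without replicate 2 of the saline-treated mutants (−0.45, adjusted p = 0.0349). The difference between the genotypes' responses was −0.31 (SE 0.128, adjusted p = 0.98). Between genotypes Chrm1 read 0.25 after saline (adjusted p = 0.188) and −0.05 after cocaine (adjusted p = 0.835).

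Over the tested receptors, limma called 0 of 3 probe sets for cocaine over both genotypes, where 2.31% of all tested probe sets were called, 0 of 3 in mutants (1.92%), 0 of 3 in controls (0.450%) and 0 of 3 for the difference in response (0.0721%). At an unadjusted p under 0.05 the counts were 1, 1, 0 and 1, in each case Chrm1. The median difference of the 3 was 0.14 between genotypes and −0.12 for cocaine, against −0.01 and −0.01 over all tested probe sets.

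**Figure D2:**
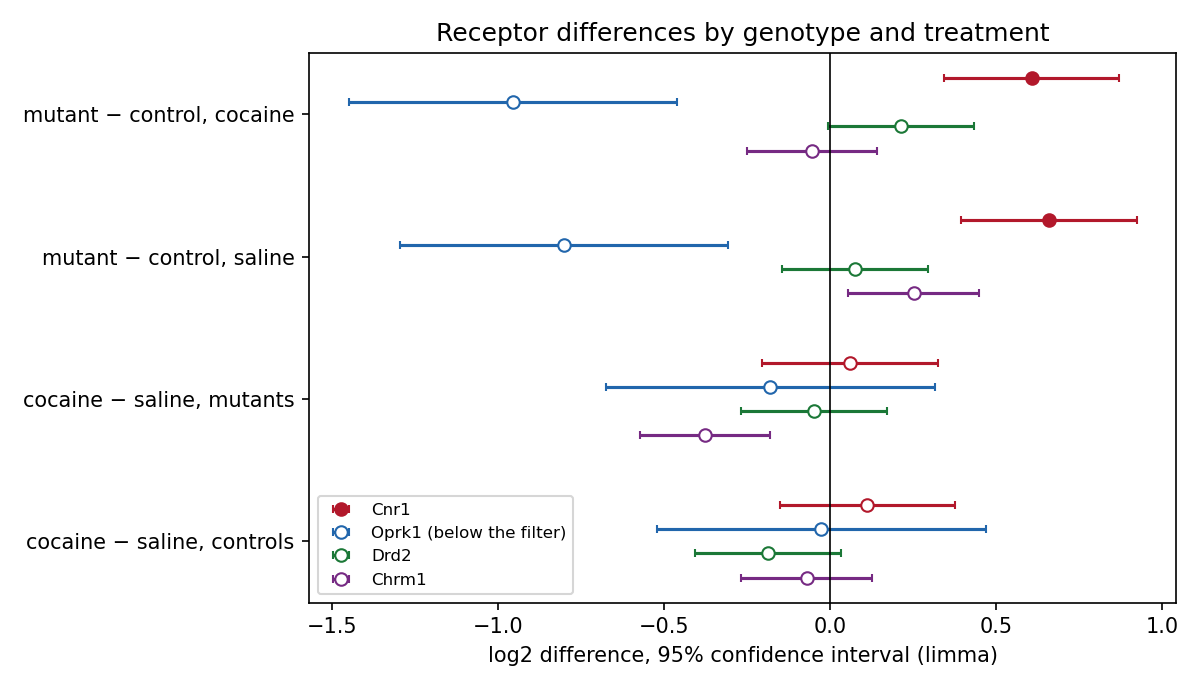
Log2 difference (x axis) with its 95% confidence interval from limma for Cnr1, Oprk1, Drd2 and Chrm1 in 4 comparisons (rows, mutant minus control above, cocaine minus saline below); filled points were called at an adjusted p under 0.05, and Oprk1 comes from the fit without the filter. The filled points are those of Cnr1, at 0.61 after cocaine and 0.66 after saline, while all 8 cocaine differences are open.

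The remaining probe sets gave no usable level. Drd3, the D3 dopamine receptor, read 2.18, 2.35 and 2.19 in cocaine-treated mutants, 2.20, 2.18 and 2.20 in saline-treated mutants, 2.19, 2.19 and 2.19 in cocaine-treated controls and 2.20, 2.20 and 2.18 in saline-treated controls. Chrm4, the M4 muscarinic receptor known from D1 medium spiny neurons, stayed between 2.25 and 2.30 on all arrays. The 3 probe sets of Oprm1, the mu opioid receptor that binds enkephalins and beta-endorphin, stayed within 0.0372, 0.0769 and 0.0727 of log2 signal. Oprd1, the delta opioid receptor for enkephalins, ranged from 2.55 to 2.92, with its highest value in replicate 3 of the cocaine-treated mutants. Without the filter none of the 6 was called in any comparison, and over both treatments their differences between genotypes lay between 0.00 and 0.03. Within a treatment the highest was that of Oprd1 after cocaine, at 0.10 (adjusted p = 0.816), and the lowest that of Oprd1 after saline, at −0.04 (adjusted p = 0.956). With array weights added, Oprd1 was called after cocaine between genotypes (0.32, adjusted p = 0.00481) and for cocaine in mutants (0.30, adjusted p = 0.0222). Values this flat and this close to the lowest signals of the arrays (1.26 to 1.29) say nothing of whether these transcripts changed.

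**Figure D3:**
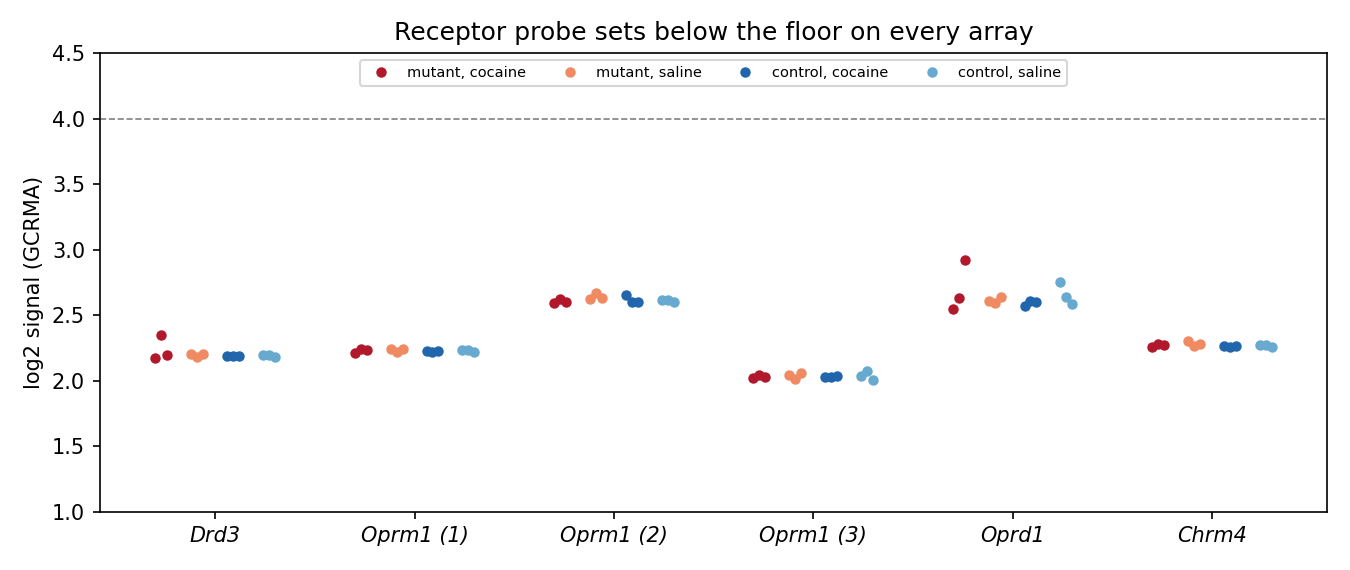
Log2 signal (y axis) of the 6 receptor probe sets below the floor of 4 (dashed line) on every array, with 3 points for each of the 4 groups; the numbers in brackets tell the probe sets of Oprm1 apart. All values lie between 2.01 and 2.92, and Oprd1 and Drd3 each have 1 higher array among the cocaine-treated mutants.

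The ligands and signalling partners of these receptors were described from 8 lists holding 44 tested genes, each read by its brightest probe set. Between genotypes 5 of the 44 were higher and 6 lower in mutants over both treatments, 25% of them, where 10.7% of 6651 genes were called (4.77% higher, 5.92% lower). With cocaine 2 rose and 0 fell, 4.55% of them, where 2.53% of genes were called (2.32% higher, 0.210% lower). The lists were put together with results of these data known, so their shares describe them and support nothing further.

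Both tested opioid peptide precursors were higher in mutants. Pdyn, the precursor of dynorphins, read 8.24, 8.09 and 8.12 in cocaine-treated mutants and 8.11, 8.18 and 7.96 in saline-treated mutants, against 5.70, 6.07 and 5.80 in cocaine-treated controls and 6.19, 5.74 and 6.01 in saline-treated controls. All mutant arrays lay far above all control arrays (log2 difference 2.20, SE 0.0872, adjusted p = 8.74e-09). Penk, the precursor of enkephalins, averaged 11.9 ± 0.0942 in mutants and 11.7 ± 0.0357 in controls (log2, SD, n = 6 each), so that mutants were higher by 0.19 (SE 0.0549, limma adjusted p = 0.0431). The Penk call was lost in 11 of 18 alternatives, with adjusted p up to 0.101: with the replicate number as a block (adjusted p = 0.073) and without any 1 of 10 arrays, all but replicate 1 of the cocaine-treated mutants and replicate 2 of the saline-treated mutants. Pomc and Pnoc lay below the filter. Neither Pdyn nor Penk was called with cocaine (−0.03 and −0.04).

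Of 4 tested genes of adenosine supply and clearance, 2 were lower in mutants. These were Adk, adenosine kinase, at −0.25 (SE 0.0608, limma adjusted p = 0.0206), and Nt5c, a cytosolic nucleotidase, at −0.25 (SE 0.0642, adjusted p = 0.0267). The other probe set of Adk read −0.22 without a call, and the call was lost for Adk without replicate 1 of the cocaine-treated controls (adjusted p = 0.0508) and for Nt5c without any 1 of 6 arrays, replicates 1 and 3 of cocaine-treated mutants, 3 of saline-treated mutants and all 3 of cocaine-treated controls (adjusted p up to 0.0663). Entpd2, the brightest uncalled member, read 0.06. None of 4 endocannabinoid enzyme genes was called, and the brightest, the monoacylglycerol hydrolase gene Abhd12, read 0.07 (adjusted p = 0.531). Among dopamine genes Ddc and Maoa were tested and not called (−0.12 and −0.02), and Th, Slc6a3 and Drd4 lay below the filter. Oprl1, the nociceptin receptor, read 0.11 (adjusted p = 0.644), and Ache, acetylcholinesterase, −0.08 (adjusted p = 0.665). With cocaine Ache read −0.35 (SE 0.0903, limma adjusted p = 0.0796). It was called in 2 of 17 alternatives, among them the fit without replicate 2 of the saline-treated controls (−0.40, limma adjusted p = 0.0364).

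Of 13 tested G protein subunit and adenylyl cyclase genes, 2 were higher and 1 lower in mutants, with a list median of −0.03 beside −0.02 over all genes. Adcy3, an adenylyl cyclase, averaged 6.40 ± 0.114 in mutants and 5.90 ± 0.123 in controls (log2, SD, n = 6 each), a difference of 0.51 (limma adjusted p = 0.000794) that all 3 of its probe sets gave as a call. Gnb5, the beta subunit that pairs with Rgs9, was higher by 0.22 (adjusted p = 0.0245), a call lost without replicate 2 or 3 of the cocaine-treated mutants or replicate 2 of either control group (adjusted p up to 0.057). Gnai1, an inhibitory alpha subunit, was lower by a log2 difference of −0.30 (adjusted p = 0.00637), with 1 of its 3 probe sets not called. The brightest uncalled member was Gnas, the stimulatory alpha subunit, at 0.21 (limma adjusted p = 0.0853). Gnas was called in 3 of 18 alternatives, among them the fit without replicate 1 of the saline-treated controls (0.27, limma adjusted p = 0.0175). With cocaine Gnai3, another inhibitory alpha subunit, rose by 0.66 (SE 0.0744, adjusted p = 0.000172) and was the only call of this list.

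Of 17 tested cyclic AMP effector and receptor desensitisation genes, 1 was higher and 3 lower in mutants, with a list median of −0.09. Pde1b, a calcium-dependent phosphodiesterase that breaks down cyclic nucleotides, was higher by 0.39 (SE 0.0592, limma adjusted p = 0.00113). Arrb1, beta-arrestin 1, which ends receptor signalling and drives internalisation, averaged 6.92 ± 0.0955 in mutants and 7.48 ± 0.101 in controls (log2, SD, n = 6 each), a difference of −0.56 (adjusted p = 8.13e-05). Rgs2, which speeds GTP hydrolysis on G proteins, was lower in mutants (−0.59, SE 0.0907, adjusted p = 0.0012) and higher with cocaine (0.51, SE 0.0907, adjusted p = 0.00758), in both of its probe sets. Rgs9, the regulator of G protein signalling enriched in the striatum, was lower (−0.33, adjusted p = 0.0342), a call lost in 9 of 18 alternatives, without the filter (adjusted p = 0.0941) and without any 1 of 8 arrays. Arpp21, the brightest uncalled member, read 0.06, and 1 of its other probe sets was called at 0.28 (adjusted p = 0.0207). Dimmer probe sets of 3 further genes not called at their brightest one were also called, at 0.58 for Pde10a (adjusted p = 0.00637), −0.25 for Arpp19 (adjusted p = 0.0132) and −0.27 for Pde4b (adjusted p = 0.0403).

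**Figure D4:**
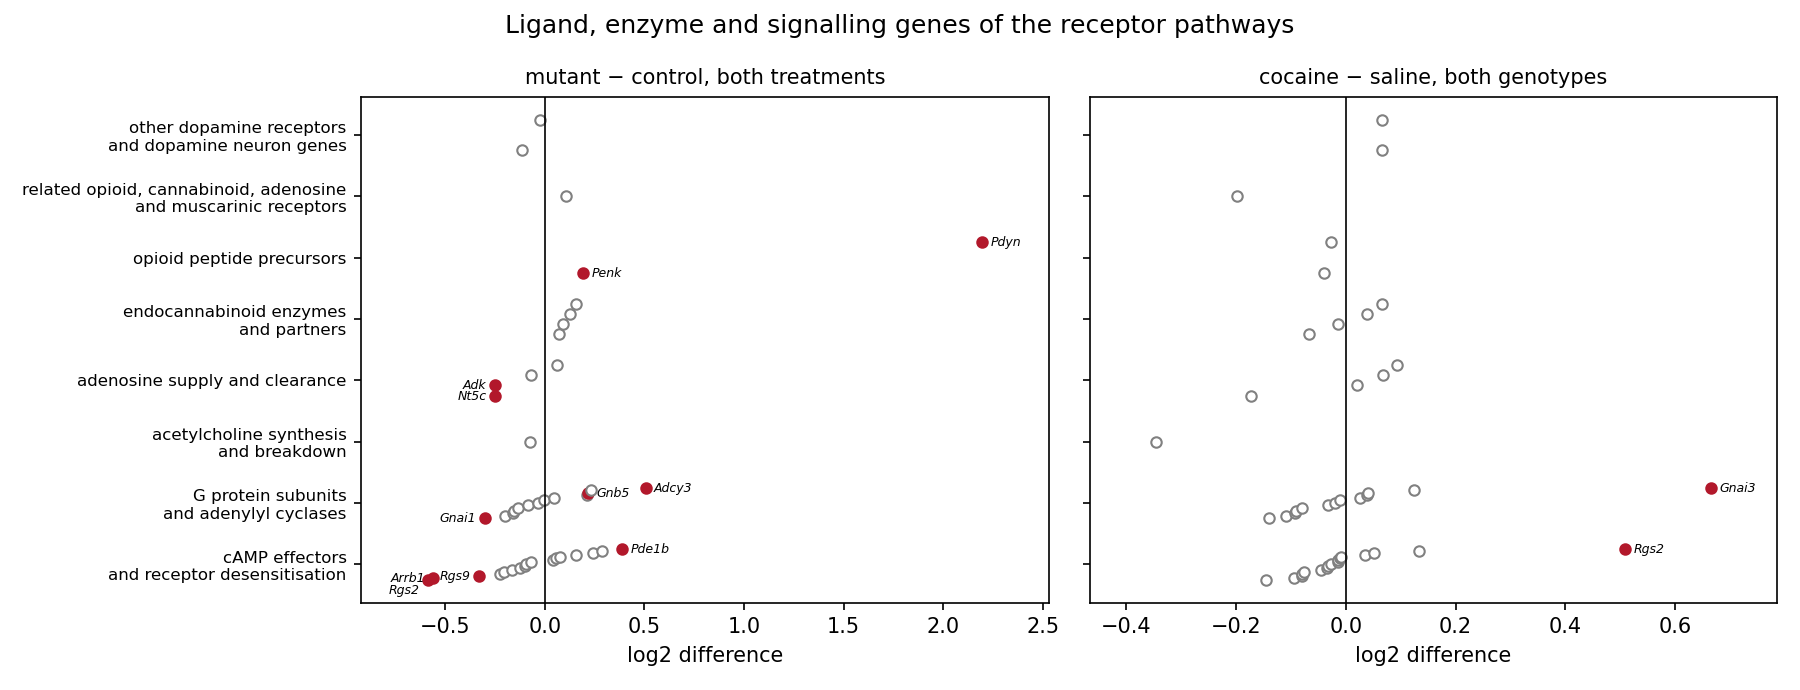
Log2 difference (x axis, a different scale in each panel) of the 44 tested ligand, enzyme and signalling genes by list (rows), for mutant minus control on the left and cocaine minus saline on the right; each point is 1 gene, and filled, named points were called at an adjusted p under 0.05. Pdyn stands apart at 2.20 in the left panel, and Gnai3 and Rgs2 are the filled points in the right panel.

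Markers of the medium spiny neuron classes moved with genotype as well. Of 5 tested D1-class markers 4 were called higher in mutants (Pdyn, Sfxn1, Tac1 and Isl1), beside 4.77% of all genes. The fifth, Ebf1, read −0.18 (adjusted p = 0.082). The dimmer probe set of Isl1 was not called (0.18, adjusted p = 0.208). The marker lists too were chosen with earlier results of these data known, so this share describes the list and supports nothing further. The list's summed linear signal ran from 2981 to 3241 in mutants and from 2127 to 2511 in controls. Tac1, the substance P precursor, was higher by 0.35 (SE 0.0529, limma adjusted p = 0.00102). It averaged 11.2 in mutants and 10.8 in controls (log2) and made up most of the D1-class sums. Those sums therefore say little of the dimmer markers Isl1 and Ebf1. Of 2 tested D2-class markers Penk was higher and Ptprm lower (−0.35, adjusted p = 0.0218). Sums ran from 3429 to 4110 in mutants and from 3213 to 3426 in controls. Penk made up nearly all of these sums, since Ptprm averaged only 5.34 in mutants and 5.69 in controls (log2). The sums therefore restate the Penk difference, whose call was lost in 11 of 18 alternatives. Among the general medium spiny neuron markers 1 of 9 was higher and 1 lower at the brightest probe set, Gad1 (0.35) and Rgs9, and dimmer probe sets of Pde10a and Arpp21 were called higher, as given above. None of 7 astrocyte, 6 oligodendrocyte, 7 microglia, 5 endothelial and mural or 5 interneuron markers was called for genotype at its brightest probe set. The astrocyte marker Gfap read 0.39 there (adjusted p = 0.144), but its dimmer probe set was called higher in mutants (0.80, adjusted p = 0.0018). The summed linear signal of the astrocyte list ran from 3151 to 3773 in mutants and from 3296 to 3749 in controls. On the list drawn up for neighbouring regions, Slc17a6, Tcf7l2, Lhx9 and Trpc4 lay below the filter. Of its 3 tested genes Six3 was higher (0.80) and Calb1 lower (−0.43). Sums ran from 1104 to 1407 in mutants and from 1381 to 1667 in controls, lower in mutants with a narrow overlap. Calb1 and Six3 averaged 9.86 and 7.97 in mutants and 10.3 and 7.17 in controls. Both are also expressed by striatal neurons, so they are not markers of tissue from outside the striatum. The part of all these marker lists in the Cnr1 and Oprk1 differences was not tested. In bulk tissue, fewer cells of a type and less RNA per cell cannot be told apart.

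Among 6650 other genes, those whose log2 signal followed Cnr1 most closely over the 12 arrays were Nedd4l (Pearson r = 0.972), Tfrc (0.956) and Sema7a (0.948), which were themselves higher in mutants by 1.27, 0.48 and 0.79. For Drd2 they were Hsd11b1 (0.879), Hnrnpr (0.853) and Yme1l1 (0.852), and for Chrm1 Smn1 (0.876), Slc31a2 (0.865) and Gba2 (0.864). These are descriptions over arrays that share groups and are the highest of many correlations.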

How the data were processed

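Transcript levels were measured on 12 Affymetrix arrays of mouse striatum. The deposited log2 signals, 1 per probe set and array, came from the authors, whose tools were R 2.4.1 and GCRMA, per the submitters' processing notes. GCRMA corrects background, normalises between arrays and summarises probe sets; its options and log base are not given in those sources, and values between 1.26 and 13.1 with array medians of 3.75 to 3.78 were taken as log2. Depth does not apply to arrays, and their number limits the precision. A shift common to all genes would no longer be visible.

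Probe sets took their symbols from the platform annotation, updated through Entrez identifiers in a RefSeq table of GRCm38.p6, and tests excluded 64 control probe sets. A signal over 4 (log2) on 3 or more arrays was required, which left 11102. limma 3.58.1 in R 4.3.3 fitted a mean for each of the 4 groups to all 12 arrays (8 residual and 4.71 prior degrees of freedom), with Benjamini-Hochberg adjustment over all probe sets tested, and a call was a two-sided adjusted p under 0.05. Errors are limma's SE. The method was tested on simulated data. The receptors, lists and tests were chosen with earlier results of these data known.

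All probe sets of the receptors are named. Of each list, up to 4 called genes of largest change and the brightest uncalled gene are named (others to spell out counts), and of each tested receptor the 3 genes of highest correlation. The replicate numbers of the titles were not used to pair the samples in the main fit. The correlation of deviations from group means exceeded 0.1 for 1 of 18 same-numbered pairs (range −0.145 to 0.116). Pairs with different numbers ranged from −0.101 to 0.160. These correlations cannot show that the samples were unpaired. Alternatives were no filter, a floor of 6, quantile normalisation, array weights, a variance trend with robust moderation, the replicate block and leaving out each array; for dim receptors these were combined with no filter, a choice made after seeing the data. RefSeq promoter windows were searched for motifs in Python 3.11.15.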

Additional observations from a re-analysis of the deposited data

How the results depend on the processing

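The higher Cnr1 signal of mutants over both treatments was called in all 17 alternatives in which it was tested (log2 difference 0.55 to 0.69, adjusted p 0.000132 to 0.00455). After saline the differences were 0.49 to 0.78, with adjusted p of 0.00565 to 0.0473, and after cocaine 0.55 to 0.64, with adjusted p of 0.000915 to 0.057. Without the filter, 2 receptor probe sets were called between genotypes over both treatments (Cnr1 and Oprk1) and 0 after cocaine. With the floor at 6, Drd2 was the only receptor probe set left to test, and the receptor counts were 0 over both treatments, 0 after saline and 0 after cocaine. Leaving out each array gave 1 to 1 receptor calls between genotypes over both treatments, 1 to 1 after saline and 0 to 1 after cocaine; for cocaine the counts were 0 to 0 over both genotypes, 0 to 1 in mutants and 0 to 0 in controls, and for the difference in response 0 to 0. With the replicate number as a block, Cnr1 read 0.63 (adjusted p = 0.0015), and 1 receptor probe set was called in each of the 3 genotype comparisons and 0 in the others; of the named genes Penk lost its call. No called value changed sign in any alternative. Of the 44 pathway genes, 7 to 16 were called between genotypes, the lowest without replicate 3 of the cocaine-treated mutants and the highest with array weights, and 2 to 3 with cocaine. Over all tested probe sets, array weights called 708 between genotypes after cocaine in place of 465 and 88 for cocaine in controls in place of 50, and the fit without the filter called 5 for the difference in response in place of 8. Between genotypes after cocaine, calls numbered 265 without cocaine-treated mutant replicate 1 and 308, 306 and 267 without cocaine-treated control replicates 1, 2 and 3, in place of 465. Between genotypes after saline, leaving out saline-treated mutant replicate 3 gave 219 and saline-treated control replicate 3 gave 220 in place of 331. For cocaine in mutants, leaving out cocaine-treated mutant replicates 1 and 2 in turn gave 131 and 141 in place of 213. Signals near the floor of 4 limit what can be said of Cnr1, Chrm1 and Oprk1, and the levels of Drd3, Oprm1, Oprd1 and Chrm4 could not be read. The cause of these changes was not tested.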
